A study of Arabidopsis thaliana with 4 samples.

Results

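Heat shock factors and molecular chaperones were followed as 54 genes, all of which had values among the 32627 genes on the arrays. They were chosen by locus code as the heat shock factor (HSF) family, HSP101 and the CLPB proteins, HSP90, HSP70 and BIP, the small heat shock proteins, ROF1, ROF2 and MBF1C. RNA of Arabidopsis thaliana seedlings in the Col-0 background was hybridised to 4 one-colour arrays, 2 of the wild type and 2 of plants carrying 35S::JMJ30-HA. In that transgene the constitutive 35S promoter of cauliflower mosaic virus drives HA-tagged JMJ30, a histone demethylase gene. All plants grew on soil without further treatment at 22 °C under long days (16 h light, 8 h dark) and were taken 13 days after germination. The labels describe the wild type as flowering normally and the transgenic line as flowering late, and do not say how many transgenic lines or plants were pooled or at what hour they were taken. Both genotypes have a replicate 1 and a replicate 2. The series text speaks of independent sets that hold both genotypes, so equal numbers are called set 1 and set 2 here. What a set shared is not given.

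When plant cells are heated, HSFs of class A1 switch on further HSF genes such as HSFA2 and a battery of chaperone genes. HSP101 dissolves protein aggregates, HSP90 and HSP70 fold and hold client proteins, and small heat shock proteins bind unfolding proteins until the larger chaperones refold them. Many of these families contain both members made at all temperatures and members induced by heat. JMJ30 is known from heat acclimation in Arabidopsis, where it and related demethylases of histone H3 act at small heat shock protein genes such as HSP22.

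The values are normalized intensities, and for each gene the transcript model with the highest mean log2 value was used. Array medians lay between 25.6 and 26.6. Averaged over arrays, the genes had a lower mode at an intensity of 4.39 and an upper mode at 186, with a valley at 14.7. A gene is called near background when its mean lay under this valley in both genotypes, which describes its level and is not a detection call. Intensities of different genes come from different probes and are not compared as amounts of transcript. JMJ30 itself read 705 and 567 against 1054 and 721. Here and below, values are given as wild type against 35S::JMJ30-HA, each with set 1 before set 2. The log2 difference of 0.46 ± 0.27 (SE) was not called by limma (adjusted p = 1.0). Whether its probes see the transgene was not tested. Among tissue markers 4 of 4 leaf genes read 1201 to 1808 over the arrays, whereas 3 of 3 root markers, 4 of 4 seed markers and 4 of 4 flower markers were near background.

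At 22 °C most members outside the small heat shock proteins were not near background. All 4 HSFA1 genes, all 3 HSP101 and CLPB genes, all 4 HSP90 genes and 3 of 3 among ROF1, ROF2 and MBF1C were not near background by this measure, nor were 9 of 10 HSP70 and BIP genes. Of the 14 small heat shock proteins 10 were near background, and the highest value of any of the 14 on any array was 37.4. In the remaining HSF classes 4 of 11 (A2 to A9) and 1 of 5 (B and C) were near background. The valley cuts through some genes, since HSFA2, HSFA7A, HSFB2A, AT1G59860, AT1G07400 and ROF2, 6 members not counted as near background, had 1 to 3 arrays above it. Among all genes 44.6% were near background, against 29.6% of the 54 members.

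**Figure D1:**
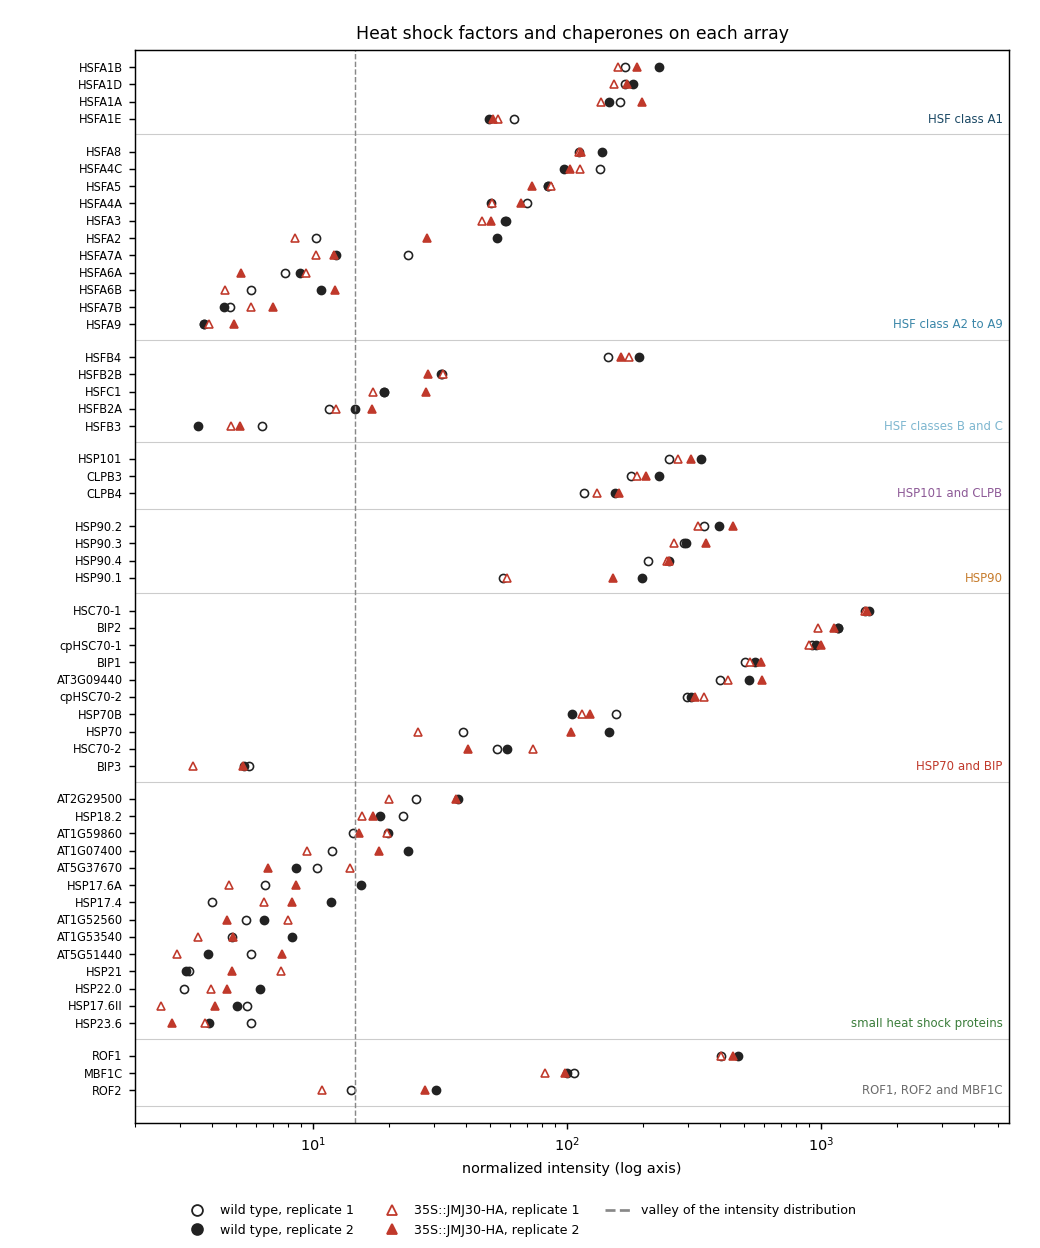
Normalized intensity (log axis) of each of the 54 members on each array, grouped by class. Circles are wild type and triangles 35S::JMJ30-HA, open for replicate 1 and filled for replicate 2, and the dashed line is the valley at 14.7. For HSFA2, HSP90.1, HSP70 and ROF2 both filled symbols lie to the right of both open ones.

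No member differed between the genotypes past the test. limma, applied to log2 values of all 32627 genes with Benjamini-Hochberg adjustment, called 0 members and 0% of all genes at an adjusted p below 0.05. The lowest adjusted p among the members was 1.0, and no member reached a 2-fold difference. With 2 arrays a genotype, a lack of calls does not show that levels were alike. At an unadjusted p below 0.05, 0 members were lower and 1, HSP21, was higher in the transgenic line, against 1.58% and 1.4% of all genes in the same order. The median log2 difference of the members, transgenic line minus wild type, was -0.04, beside -0.0039 for all genes. Within the sets taken apart, 17 members were lower in both and 9 higher in both, or 31.5% and 16.7%, where all genes gave 25.5% and 24.7%. The remaining 28 members changed sign between the sets. Both transgenic arrays lay below both wild-type arrays for 8 members and above them for 4, or 14.8% and 7.41%, against 13.3% and 12.7% of all genes. Both shares for lower values were above those of all genes, and both shares for higher values were below them. This tilt was not tested, and nothing about the members was read from it.

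The replicate number as a block changed no call. With it the unadjusted p lay below 0.05 for 6 members with lower values and 1 with a higher value, against 3.09% and 2.92% of all genes. The lowest adjusted p with the block was 0.825. The lower members were HSFA2, HSP70 and the small heat shock proteins AT1G53540, HSP17.6II, HSP17.6A and HSP23.6, and the higher one was HSP21. All 4 of these small heat shock proteins and HSP21 were near background. Whether a genotype difference itself differs between the sets cannot be tested, since such a fit leaves no residual degrees of freedom.

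**Figure D2:**
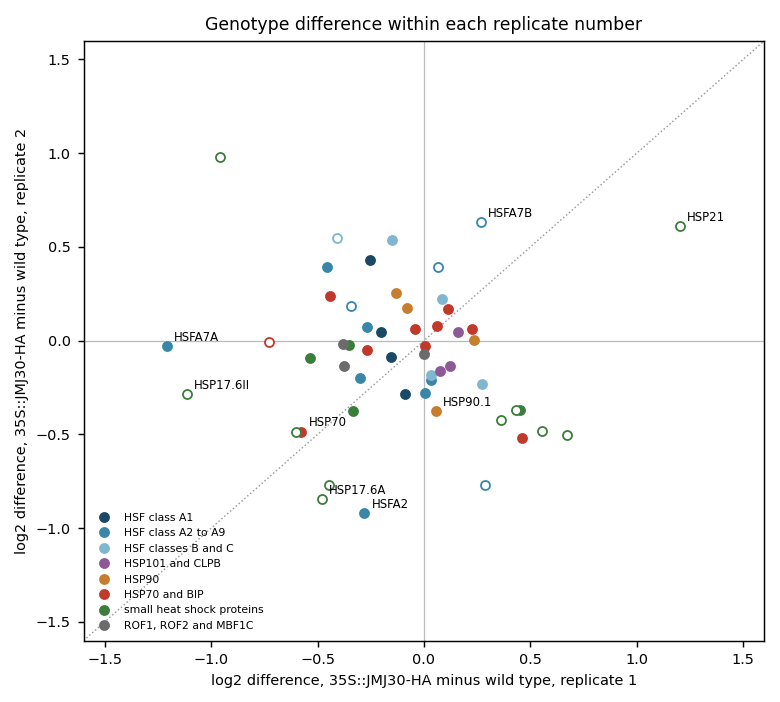
Log2 difference of 35S::JMJ30-HA minus wild type for each of the 54 members within replicate 1 (x axis) and within replicate 2 (y axis). Open points are near background and filled points are not, the dotted line marks equal differences, and 28 members lie in the quadrants where the sign differs between replicates.

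Between the sets the members spread further than between the genotypes. The SD of the log2 difference over the 54 members was 0.57 between sets and 0.28 between genotypes, beside 0.41 and 0.27 over all genes. Reading 2-fold or more higher in set 2 were 6 members, or 11.1%, and 0 read 2-fold or more lower, against 1.39% and 1.27% of all genes. These 6 were HSFA2, HSFA6B, HSP90.1, HSP70, HSP17.6A and ROF2, of which HSFA6B and HSP17.6A were near background. With values under the valley taken at the valley, 3 members (HSFA2, HSP90.1 and HSP70) were 2-fold or more higher and 0 lower, against 0.705% and 0.699% of all genes. Both arrays of set 2 lay above both of set 1 for 26 members and below for 4, against 25.5% and 23.2% of all genes. The median log2 difference, set 2 minus set 1, was 0.16 over the members and 0.0091 over all genes. In seedling RNA, fewer cells of a type and less RNA per cell cannot be told apart. Taken by genotype, that median was 0.11 in wild-type arrays and 0.21 in transgenic ones. Over the 54 members the set differences of the 2 genotypes, which share no array, correlated with r = 0.56, beside 0.42 over all genes. Without genes near background this r was 0.74 over 38 members, beside 0.67 over all such genes. Over the 16 members near background r was 0.26. Among the 38 are HSFA2, HSP70, HSP90.1 and ROF2, each with a log2 set difference of 1.1 or more in both genotypes. A few such genes can carry an r, and r without these 4 was not computed. Of the 38, 22 were higher in set 2 in both genotypes, 3 lower in both, and 13 differed in sign.

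The test of this set difference used limma with genotype as a second term, which leaves 1 residual degree of freedom. It called 0 members and 0.0123% of all genes at an adjusted p below 0.05. At an unadjusted p below 0.05, 10 members were higher and 2 lower in set 2, against 8.35% and 7.11% of all genes. Restricted to 17725 genes whose mean log2 value over the arrays exceeded the valley, it called 6 of the 36 members kept, all higher in set 2. Of those genes 10.5% were called. With log2(value + 16) over all genes the count was again 6, here of 54 members, where 5.66% of all genes were called. Both settings called HSFA2, HSP90.1, HSP70, ROF2 and the small heat shock proteins AT2G29500 and AT1G07400. Trend and robust settings called 11 of 54 members, where 10.9% of all genes were called. There the median over genes of the prior degrees of freedom was infinite.

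**Figure D3:**
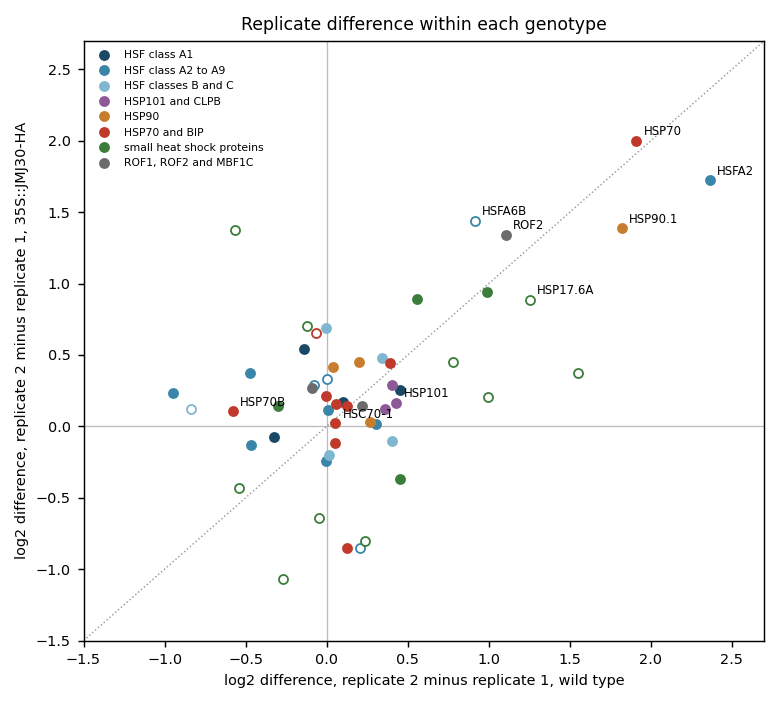
Log2 difference of replicate 2 minus replicate 1 for each of the 54 members in the wild type (x axis) and in 35S::JMJ30-HA (y axis). HSFA2, HSP70, HSP90.1 and ROF2, none of them near background, lie at 1.11 or more on both axes, while HSC70-1 lies near 0 on both and HSP70B differs in sign.

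The class A1 factors, which start the transcriptional heat response, showed small differences. HSFA1B read 170 and 232 against 159 and 190. HSFA1D read 170 and 183 against 153 and 172. Both genes were lower in the transgenic line within each set, with overlapping groups. HSFA1A read 162 and 147 against 136 and 198, and the sets disagreed in sign. HSFA1E read 62.0 and 49.5 against 53.8 and 51.1. The log2 genotype differences of the class ran from -0.19 to 0.09, with an SE of 0.24 for HSFA1B and 0.25 for HSFA1A. A second model of HSFA1B was near background on all arrays, at 5.30 to 9.37.

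HSFA2 is the heat-induced factor that prolongs acquired thermotolerance. It read 10.3 and 53.3 against 8.52 and 28.1. Both arrays of set 1 lay under the valley and both of set 2 above it, and the genotypes overlapped. The log2 set difference was 2.04 ± 0.22 (SE). limma gave it an adjusted p of 0.0895, ranging from 1.35e-09 (trend and robust settings) to 0.185 over 7 alternatives. The next lowest was 0.00184, among genes above the valley. Of all genes 99.9% had a lower set difference. With values under the valley taken at the valley, HSFA2 was at least 2.64-fold higher in set 2, and with log2(value + 16) its difference was 1.12. Between genotypes HSFA2 differed by -0.60 ± 0.93 (SE) on the log2 scale, with -0.28 inside set 1 and -0.92 inside set 2. The dimmer second model of HSFA2 read 5.69 and 25.3 against 7.47 and 10.4, a log2 set difference of 1.31, with genotype differences of opposite sign in the sets.

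HSFA8 read 112 and 138 against 112 and 113, and HSFA4C read 135 and 97.8 against 112 and 103. HSFA7A, a heat-induced factor, read 23.8 and 12.4 against 10.3 and 12.1, with 1 of 4 arrays above the valley. Its log2 genotype difference was -0.62 ± 0.35 (SE), at -1.21 inside set 1 and -0.03 inside set 2. It was -0.31 with log2(value + 16), and between -1.09 without wild-type replicate 2 and -0.15 without wild-type replicate 1. Fits without 1 array had no set term, so part of the set difference enters them. HSFA7B read 4.74 and 4.49 against 5.71 and 6.96, with both transgenic arrays above both wild-type arrays, though all 4 were near background. HSFA6B read 5.72 and 10.8 against 4.51 and 12.2, with a log2 set difference of 1.18 and no array above the valley. HSFA3, HSFA4A and HSFA5 were not near background, with log2 genotype differences of -0.25, -0.03 and -0.09, and for HSFA3 both transgenic arrays were the lower ones. HSFA6A and HSFA9, the latter a factor of seed maturation, were near background.

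Class B factors lack the activation domain of class A, and several act as repressors. HSFB4, known as SCHIZORIZA for its role in root cell fate, read 145 and 192 against 175 and 164. HSFB2B read 31.9 and 32.2 against 32.6 and 28.3. HSFB2A lay at the valley, at 11.6 and 14.7 against 12.3 and 17.2. HSFC1 read 19.2 and 19.1 against 17.2 and 27.8, and HSFB3 was near background at 6.32 and 3.54 against 4.76 and 5.16. In every one of the 5 the groups overlapped. The median log2 genotype difference of 0.07 was 0.02 above the valley. It ran from -0.02 without wild-type replicate 1 to 0.19 without wild-type replicate 2, again with no set term.

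HSP101, the cytosolic disaggregase needed for acquired thermotolerance, read 252 and 339 against 275 and 308. CLPB3, its counterpart in the chloroplast, read 179 and 230 against 189 and 205. CLPB4, the mitochondrial form, read 117 and 155 against 131 and 160. All 3 genes had both arrays of set 2 above both of set 1, with log2 set differences from 0.24 to 0.35, and none was called. Genotype differences were between -0.04 and 0.10, and that of HSP101 (-0.0067) turned to 0.02 with median centring.

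Among the HSP90 genes, HSP90.1 is the heat-induced member and had the largest set difference of the 4. It read 56.1 and 198 against 58.3 and 153. Set 2 was 3.04-fold higher, which is 1.605 ± 0.19 (SE) on the log2 scale. limma gave an adjusted p of 0.105, ranging from 6.18e-24 (trend and robust settings) to 0.131 over 7 alternatives. The next lowest was 0.00266, among genes above the valley. HSP90.2 read 347 and 398 against 328 and 449, HSP90.3 read 288 and 296 against 263 and 352, and HSP90.4 read 210 and 252 against 247 and 253. Their log2 set differences were 0.33, 0.23 and 0.15. HSP90.3 and HSP90.4 are neighbours in the TAIR10.1 gene table, with HSP90.2 beyond 1 further gene. These copies are closely related, and without probe positions their separate values are uncertain. The same holds for the adjacent pairs HSC70-1 with HSC70-2 and HSP17.6A with HSP17.6II. The genotype differences of the 4 genes ran from -0.16 to 0.12.

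HSP70 (AT3G12580), a heat-induced cytosolic chaperone, read 38.9 and 146 against 26.1 and 104. Both arrays of set 2 lay far above both of set 1, and within each set the transgenic array was the lower one. The set difference was 3.88-fold, or 1.96 ± 0.17 (SE) on the log2 scale. limma gave an adjusted p of 0.0683, ranging from 1.46e-24 (trend and robust settings) to 0.0982 over 7 alternatives. The next lowest was 0.000801, among genes above the valley. Between genotypes HSP70 differed by -0.53 ± 0.88 (SE) on the log2 scale, with -0.58 inside set 1 and -0.49 inside set 2. The 95% interval before adjustment was -2.78 to 1.72. Under the replicate block it narrowed to -0.97 to -0.096, without a call (adjusted p = 0.825).

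The constitutive HSC70-1 read 1491 and 1547 against 1495 and 1517. Its log2 genotype difference of -0.01 turned to 0.04 with the mean of its models, 0.03 with quantile normalization and 0.02 with median centring. AT3G09440, an HSP70 by the list of members, read 400 and 523 against 432 and 587, with set 2 higher in both genotypes. HSP70B read 156 and 105 against 115 and 124, with log2 set differences of -0.58 in wild-type arrays and 0.10 in transgenic ones. HSC70-2, the neighbour of HSC70-1, read 53.3 and 58.3 against 73.4 and 40.7.

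BIP2, a chaperone of the endoplasmic reticulum, read 1171 and 1168 against 973 and 1129. Both transgenic arrays lay below both wild-type arrays, with a log2 difference of -0.16. A dimmer second model of BIP2, at 835 to 1048, gave 0.17, so the models disagree in direction. BIP1 had log2 genotype and set differences of 0.07 and 0.13. BIP3, induced when the endoplasmic reticulum is stressed, was near background at 5.59 and 5.35 against 3.38 and 5.32. The chloroplast proteins cpHSC70-1 and cpHSC70-2 had log2 genotype differences of 0.01 and 0.14.

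The 4 small heat shock proteins that were not near background come first. AT2G29500 had the highest values of the class, at 25.4 and 37.4 against 19.9 and 36.8. HSP18.2 read 22.7 and 18.4 against 15.6 and 17.2. AT1G07400 read 11.9 and 23.63 against 9.47 and 18.22, a log2 set difference of 0.97 ± 0.16 (SE), close in both genotypes at 0.986 (wild type) and 0.94. With values under the valley taken at the valley it was at least 1.41-fold higher in set 2. AT1G59860, the fourth, read 14.4 and 19.7 against 19.7 and 15.3.

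Among the 10 near background, HSP21 of the plastid read 3.27 and 3.16 against 7.52 and 4.83, a log2 genotype difference of 0.91 ± 0.27 (SE, adjusted p = 1.0 by limma). HSP17.6II read 5.49 and 5.04 against 2.54 and 4.13, a difference of -0.70 ± 0.29 (SE). Its neighbour HSP17.6A read 6.51 and 15.5 against 4.67 and 8.62, with 1 of 4 arrays above the valley. HSP22.0 of the endoplasmic reticulum, which lies outside the rule for named genes and is given for the background on JMJ30, read 3.11 and 6.18 against 3.99 and 4.61. AT1G53540 and HSP23.6 had log2 genotype differences of -0.61 and -0.55. HSP17.4, AT5G51440, AT5G37670 and AT1G52560 differed by 0.0084 to 0.08, with opposite signs in the sets. Over the 14 genes, of which 10 were near background, 7 were lower in both sets and 1 higher, where all genes gave 25.5% and 24.7%. For 3 of them (HSP18.2, HSP17.6II and HSP23.6) both transgenic arrays lay below both wild-type arrays, and for 1 (HSP21) above, against 13.3% and 12.7% of all genes. Of these only HSP18.2 was not near background. The median log2 genotype difference of the 14 genes, -0.11, was -0.25 above the valley and -0.07 with log2(value + 16). It ran from -0.37 without wild-type replicate 1 to 0.03 without wild-type replicate 2, again with no set term.

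ROF1 and ROF2 are immunophilins that bind HSP90 and act with HSFA2 in sustained thermotolerance, and MBF1C is a transcriptional coactivator of heat tolerance. ROF1 read 406 and 472 against 406 and 449. ROF2 read 14.2 and 30.5 against 10.9 and 27.7, under the valley in set 1 and above it in set 2 in both genotypes. It was at least 1.98-fold higher in set 2 with low values taken at the valley. The log2 set difference of ROF2 was 1.22 ± 0.17 (SE). limma gave an adjusted p of 0.134, ranging from 0.00118 (trend and robust settings) to 0.156 over 7 alternatives. MBF1C, which is heat-induced as well, read 107 and 99.9 against 81.9 and 98.9, so both transgenic arrays lay below both wild-type arrays, and its log2 set difference was 0.09.

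**Figure D4:**
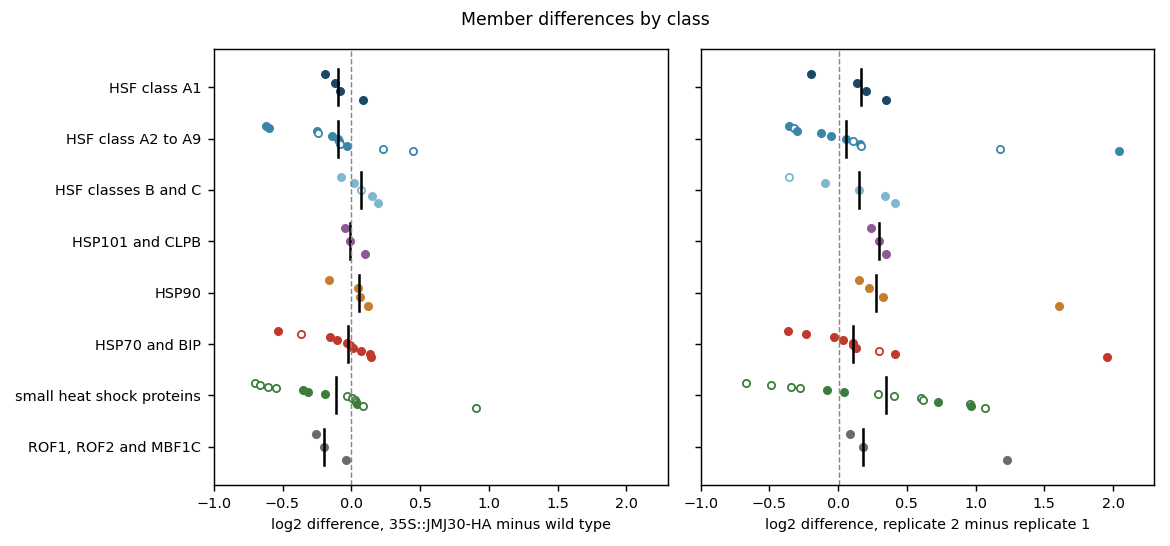
Log2 differences of the 54 members by class, 35S::JMJ30-HA minus wild type on the left and replicate 2 minus replicate 1 on the right. Each point is a gene, open when near background, black bars are class medians and the dashed lines the medians of all genes; HSFA2, HSP90.1, HSP70 and ROF2 are the isolated filled points beyond 1 on the right.

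Genes that work with these chaperones were read from further lists. None of 16 co-chaperones and coregulators was called between genotypes, with 6 lower in both sets and 3 higher, where all genes gave 25.5% and 24.7%, and a median log2 difference of -0.05. BAG6, a co-chaperone of the BAG family, read 114 and 121 against 98.0 and 95.9, and HOP2, which links HSP70 to HSP90, read 275 and 282 against 329 and 338. HOP3 was singled out with its values in view, at 49.1 and 166 against 47.5 and 141. Its log2 set difference of 1.66 (adjusted p = 0.0854 by limma) was in the range of HSP90.1 and HSP70.

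Of 12 chaperones of organelles outside the members, 3 were lower and 2 higher in both sets, against the same 25.5% and 24.7%, with a median log2 genotype difference of -0.03. CPN60B, a chaperonin subunit of the chloroplast, read 981 and 934 against 859 and 859, and HSP90.7, the HSP90 of the endoplasmic reticulum, read 654 and 760 against 760 and 788. Both arrays of set 2 lay above both of set 1 for 8 of these 12 genes and below for 1, against 25.5% and 23.2% of all genes. None of the 12 was near background, and among all such genes the shares were 30.8% and 27.2%. The 16 co-chaperones and coregulators gave 9 above and 4 below, and 5 other stress genes gave 1 and 2. Of these 5 stress genes GOLS1, a galactinol synthase gene that HSFs activate, read 33.7 and 41.9 against 30.2 and 26.8. BZIP60, a regulator of endoplasmic reticulum stress, read 211 and 184 against 219 and 224. DREB2A was singled out in the same way, at 53.7 and 78.3 against 32.6 and 91.5.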

How the data were processed

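The deposited values are normalized intensity values, 1 for each of 37118 transcript models, and RMA is named in the submitters' processing notes with no version or settings. No genome build or probe position was given in the sources used here. The lowest of the deposited intensity values was 1.50 and the highest 4400, so they were read as linear and log2 was taken with no pseudocount. No detection call was used, and the number of arrays limits precision.

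The brightest model per gene was kept (3602 of 32627 genes had several). Members matched the TAIR10.1 gene table for 54 of 54 loci, and 8 have no symbol there and go by locus code. The tests of genotypes and of sets were two-sided and used lmFit and eBayes of limma 3.58.1 (R 4.3.3), with p-values adjusted over all genes. Only the genotype test, with and without the block, was run on simulated data, which held no set effect. The set test was not. Intervals are 95% before adjustment, and SE is the moderated SE. Per the labels the 2 arrays of a genotype are biological replicates, with no word on separate plantings.

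Equal replicate numbers were taken as pairs because the series text describes sets holding both genotypes. As a check, same-numbered arrays deviated together from their genotype mean, with r = 0.42 over all genes and 0.67 over those above the valley. This r is across genes, which are not independent.

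The members, lists and tests were chosen with earlier results of these data known. Arrays were given in full for the HSFA1 genes, HSFA2, HSP101 and HSP70, and in each class for the 2 brightest members and the 2 with the largest absolute moderated t between genotypes or difference between sets. In the other lists the 2 genes with the largest absolute t were named. Genes outside this rule are given by value as members or are marked.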

Additional observations from a re-analysis of the deposited data

How the results depend on the processing

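The count of genes called between genotypes was 0, and it was 0 under every alternative except 3. Loosening the threshold to an adjusted p of 0.10 gave 1 gene, eBayes with trend and robust gave 1, and there were 3 with the replicate block among genes above the valley, a combination chosen after seeing the data. None of the 36 named members was among them. The replicate block alone gave 0 calls and the pairing changed no call of a member. The count called between sets was 4 and depended on the setting, at 1857 among genes above the valley, 1847 with log2(value + 16), 3553 with trend and robust settings, 87 without the genotype term, 153 at an adjusted p below 0.10, and 0 with the mean of models or quantile normalization. The cause of these shifts was not tested. At an adjusted p below 0.10 the set comparison called 2 members, HSP70 and HSFA2.

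The median genotype difference of all members (-0.04) was -0.0597 above the valley and -0.00995 with median centring. Without each array in turn it ran from -0.145 to 0.0560. There 1 set held a single genotype and the fit had no set term, so part of the set difference enters the value. Of the 36 named members none was called between genotypes under any alternative. The sign changed under processing alternatives for 3 of them. HSP101 read 0.0224 with median centring. HSC70-1 read 0.0172 with median centring, 0.0337 with quantile normalization and 0.0412 with the mean of models, and BIP2 read 0.0058 with the mean of models. Between sets HSC70-1 read -0.0457 and BIP2 -0.0036 with the mean of models. Class medians of the genotype difference ran without each array in turn from -0.194 to -0.0268 for HSF class A1, -0.147 to -0.0896 for HSF class A2 to A9, -0.0176 to 0.192 for HSF classes B and C, -0.221 to 0.208 for HSP101 and CLPB, -0.163 to 0.273 for HSP90, -0.0753 to 0.0419 for HSP70 and BIP, -0.372 to 0.0269 for small heat shock proteins and -0.333 to 0.0730 for the ROF1, ROF2 and MBF1C group. Those of the set difference ran from -0.0206 to 0.211 for HSF class A1, 0.00459 to 0.233 for HSF class A2 to A9, 0.0141 to 0.119 for HSF classes B and C, 0.166 to 0.404 for HSP101 and CLPB, 0.233 to 0.436 for HSP90, 0.0549 to 0.150 for HSP70 and BIP, 0.290 to 0.346 for small heat shock proteins and 0.216 to 0.271 for the ROF1, ROF2 and MBF1C group. For small heat shock proteins the genotype median (-0.110) was -0.253 above the valley, -0.0651 with log2(value + 16) and -0.0813 with median centring, and the set median (0.348) was 0.0696 with log2(value + 16). The count of members 2-fold or more higher in set 2 fell from 6 to 3 with values under the valley taken at the valley, which was added with the data in view.

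Because genotype fits without 1 array mix in part of the set difference, a sign change there can occur where both sets agree. HSP70 is a case, with -0.58 inside set 1 and -0.49 inside set 2. Leaving out each array in turn changed the sign of the genotype difference for 26 named members, whose log2 ranges were as follows: HSFA1A (-0.182 to 0.359), HSFA1B (-0.413 to 0.0366), HSFA1E (-0.241 to 0.0832), HSFA2 (-1.78 to 0.582), HSFA4C (-0.330 to 0.136), HSFA6B (-0.801 to 0.639), HSFA8 (-0.289 to 0.0131), HSFB2A (-0.0872 to 0.393), HSFB2B (-0.178 to 0.0255), HSFB3 (-0.350 to 0.487), HSFB4 (-0.182 to 0.221), HSFC1 (-0.151 to 0.538), HSP101 (-0.221 to 0.208), CLPB3 (-0.224 to 0.138), CLPB4 (-0.100 to 0.304), HSP90.1 (-1.07 to 0.751), HSP90.2 (-0.178 to 0.276), HSP90.3 (-0.149 to 0.270), HSP90.4 (-0.0147 to 0.252), HSP70 (-1.53 to 0.470), HSC70-1 (-0.0382 to 0.0143), AT3G09440 (-0.0818 to 0.361), AT2G29500 (-0.634 to 0.255), AT1G07400 (-0.846 to 0.140), ROF1 (-0.143 to 0.0730) and ROF2 (-0.927 to 0.416). It changed the sign of the set difference, there a value with no test, for 12: HSFA1A (-0.141 to 0.542), HSFA7A (-0.945 to 0.233), HSFA7B (-0.0777 to 0.287), HSFB2B (-0.204 to 0.0141), HSFB3 (-0.837 to 0.119), HSFB4 (-0.101 to 0.403), HSFC1 (-0.00246 to 0.689), BIP3 (-0.0649 to 0.654), BIP2 (-0.00318 to 0.214), HSP18.2 (-0.303 to 0.141), HSP17.6II (-0.123 to 0.703) and MBF1C (-0.0934 to 0.271). With 1 array left out, each set difference above is that of the genotype that kept both arrays. HSP70, HSFA2, HSP90.1 and ROF2 were higher in set 2 in both genotypes. They therefore stay higher by construction, which is no further check. Depth does not apply to arrays, and values under the valley of 14.7 limit what can be read of the small heat shock proteins. The planned search for heat shock elements in promoters was not run, because no promoter sequence was used here.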
